A study of Homo sapiens with 4 samples.

Results

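Among the 19229 autosomal protein-coding genes of the annotation, 9 were followed here: LRP1B, CSMD1, CNTNAP2, NRXN3, PTPRD, DLG2, RBFOX1, MACROD2 and CTNNA2. They were chosen by name as very long genes, most of them best known from neurons, with earlier results of these data known. The measurement was CUT&RUN, which cuts and releases DNA next to an antibody-bound protein, with an antibody to the V5 tag on ectopic SOX2 or on the DNA-binding domain of SOX2 alone (SOX2-DBD). The cells were BJ, an established line of human foreskin fibroblasts, 48 h after the start of expression, and the labels list 2 samples for each protein. No untreated or tag-free control was analysed here, and the labels do not give the promoter or vector used for expression. Each protein is represented by the list deposited with replicate 1, in which an interval is a stretch of hg19 called as enriched by the authors. There is therefore no replicate check on any value. Every 95% interval below covers counting error only, over intervals that lie in clusters and are not independent.

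The gene bodies, from GENCODE release 44 on GRCh37, were 1.46 to 2.47 Mb long and together covered 18.4 Mb, or 0.640% of the autosomal sequence. They were overlapped by 155 of the 57446 autosomal SOX2 intervals (0.270%) and by 37 of the 15123 autosomal SOX2-DBD intervals (0.245%). An interval found in both lists is called shared, one in the SOX2 list alone SOX2-only, and one in the SOX2-DBD list alone SOX2-DBD-only. In the 9 genes, 36 intervals were shared, 119 were SOX2-only and 1 was SOX2-DBD-only. Library depth is unknown. RNA was not measured here, so whether these genes were silent in the cells used could not be checked.

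SOX2 is a transcription factor whose high-mobility-group domain binds and bends DNA at a short AT-rich sequence, and it is called a pioneer factor because it can bind its sites in compacted chromatin. Very long genes of this kind consist almost entirely of intron, replicate late in many cell types, and several of them span common fragile sites. Their products mostly act at synapses, at other neuronal contacts or in neuronal RNA processing. The study as a whole concerned how pioneer factors scan compacted chromatin, and the comparison here asked how listed SOX2 and SOX2-DBD sites were spread over these genes.

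Taken as 1 set, the 9 genes held fewer intervals per length than the rest of the autosomes. SOX2 intervals stood at 8.41 per Mb (exact Poisson 95% interval 7.14 to 9.84), against 20.0 per Mb in the other autosomal sequence, a ratio of 0.420 (exact conditional 95% interval 0.357 to 0.492). SOX2-DBD intervals stood at 2.01 per Mb (1.41 to 2.77), against 5.27 per Mb, a ratio of 0.381 (0.268 to 0.525). Of the 37 SOX2-DBD intervals in the genes, 36 were also in the SOX2 list, so the ratios are not independent. The genes were far from uniform. CSMD1, PTPRD and RBFOX1 had 0 intervals in both lists, whereas MACROD2 exceeded the autosomal density and alone carried 42.6% of the SOX2 intervals. Without MACROD2 the SOX2 ratio was 0.272 and the SOX2-DBD ratio 0.267.

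**Figure D1:**
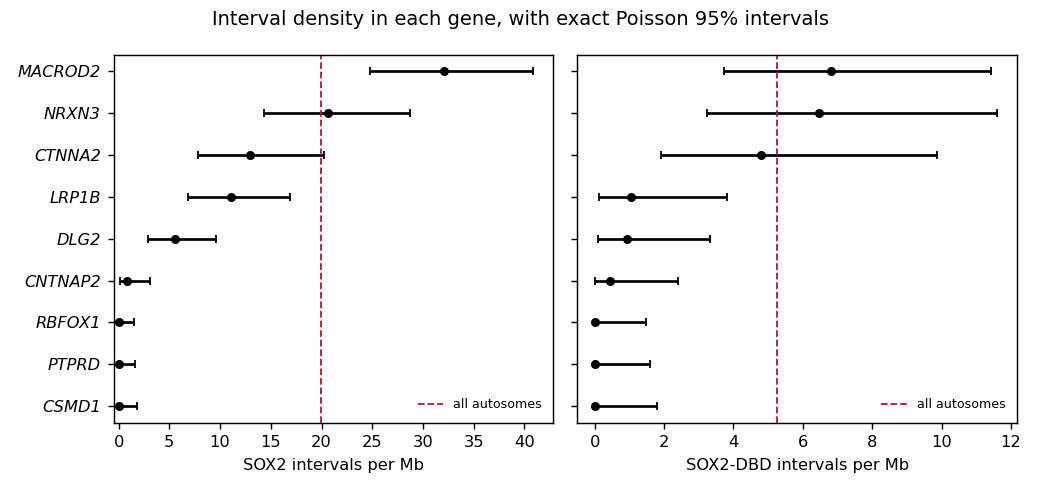
SOX2 (left) and SOX2-DBD (right) intervals per Mb in each gene body, with exact Poisson 95% intervals as bars and the density over all autosomes as a dashed line. MACROD2 lies above the SOX2 line at 32.1 per Mb, NRXN3 lies close to it, and RBFOX1, PTPRD and CSMD1 lie at 0 on both sides.

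In order of SOX2 density the genes ran MACROD2, NRXN3, CTNNA2, LRP1B, DLG2 and CNTNAP2, followed by the 3 genes at 0. MACROD2 exceeded NRXN3 by a ratio of 1.56 (1.02 to 2.42), and DLG2 exceeded CNTNAP2 by 6.36 (1.42 to 58.5). The neighbours in between were not separated beyond counting error in the SOX2 list. The ratio of NRXN3 to CTNNA2 was 1.59 (0.884 to 2.94), that of CTNNA2 to LRP1B 1.17 (0.597 to 2.29) and that of LRP1B to DLG2 2.0 (0.941 to 4.46). The order depended in part on the list. In the SOX2 list named as down-sampled, DLG2 had 4 intervals and CNTNAP2 1, and their densities overlapped (0.501 to 4.71 and 0.0110 to 2.42 per Mb). Among the upper 50% of SOX2 intervals by total signal, CTNNA2 stood at 3.42 per Mb, below LRP1B at 4.21 per Mb. By SOX2-DBD density the 6 occupied genes stood in the same order, on 14, 11, 7, 2, 2 and 1 intervals. The intervals of neighbours overlapped there, for example 6.80 per Mb (3.72 to 11.4) in MACROD2 and 6.48 per Mb (3.23 to 11.6) in NRXN3.

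A window in each occupied gene shows the sequence at 1 listed site. The 119 SOX2-only intervals of the set are not represented. The shared interval of highest total signal was taken in each gene, because it is listed for both proteins, and the 200 bases around its centre were read from the plus strand of GRCh37 (hg19). Capitals mark the SOX core motif, ACAAAG or ACAATG on either strand.
NRXN3, chr14:79882992-79883191: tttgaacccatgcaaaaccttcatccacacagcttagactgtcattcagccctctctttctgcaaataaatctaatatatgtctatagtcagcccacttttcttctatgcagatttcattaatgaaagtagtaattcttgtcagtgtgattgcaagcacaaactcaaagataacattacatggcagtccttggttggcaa
CNTNAP2, chr7:147110033-147110232: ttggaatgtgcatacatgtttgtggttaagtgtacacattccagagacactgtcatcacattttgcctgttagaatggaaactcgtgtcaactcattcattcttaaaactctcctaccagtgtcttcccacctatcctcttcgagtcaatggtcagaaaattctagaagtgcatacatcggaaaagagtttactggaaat
LRP1B, chr2:141782383-141782582: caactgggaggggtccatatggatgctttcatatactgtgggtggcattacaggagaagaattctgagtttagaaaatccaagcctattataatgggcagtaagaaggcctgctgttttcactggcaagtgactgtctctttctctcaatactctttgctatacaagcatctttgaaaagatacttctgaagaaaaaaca
DLG2, chr11:83295101-83295300: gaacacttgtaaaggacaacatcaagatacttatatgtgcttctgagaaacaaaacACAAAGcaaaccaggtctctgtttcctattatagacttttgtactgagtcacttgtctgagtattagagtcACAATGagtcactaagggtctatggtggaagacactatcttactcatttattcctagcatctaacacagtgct
CTNNA2, chr2:80225450-80225649: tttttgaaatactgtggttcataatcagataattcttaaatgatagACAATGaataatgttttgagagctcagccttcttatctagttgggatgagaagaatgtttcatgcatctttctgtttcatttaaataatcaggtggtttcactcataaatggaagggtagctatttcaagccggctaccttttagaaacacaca
MACROD2, chr20:14170283-14170482: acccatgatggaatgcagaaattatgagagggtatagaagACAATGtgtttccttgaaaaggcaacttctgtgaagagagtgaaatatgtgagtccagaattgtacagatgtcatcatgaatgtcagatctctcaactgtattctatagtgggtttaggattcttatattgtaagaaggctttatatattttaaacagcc
The windows of DLG2, CTNNA2 and MACROD2 held 2, 1 and 1 matches to the motif, and those of NRXN3, CNTNAP2 and LRP1B held 0. All 6 windows lay in introns. A match describes the letters and not a bound site.

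**Figure D2:**
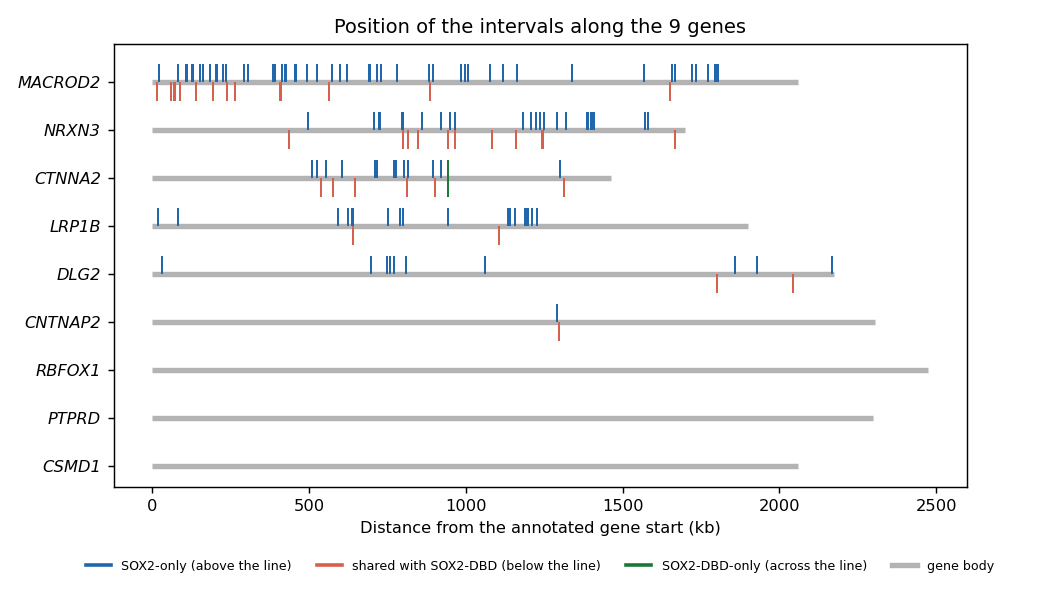
Each grey line is 1 gene body, drawn from its annotated start in the direction of transcription, in kb, with SOX2-only intervals above the line, shared intervals below it and the SOX2-DBD-only interval across it. Intervals fill most of MACROD2, keep to the middle of CTNNA2 between 509 and 1311 kb, form a single pair in CNTNAP2 and are missing from RBFOX1, PTPRD and CSMD1.

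The genes of the surface proteins in the set ran from 0 to 20.6 SOX2 intervals per Mb. NRXN3 encodes neurexin 3, a presynaptic adhesion molecule, and lies at chr14:78636716-80334634 on the plus strand. It held 35 SOX2 intervals, 20.6 per Mb (14.4 to 28.7), which was 1.03 times (0.720 to 1.44) the density of the other autosomal sequence. The first 436 kb of the gene held none of them. When the gene was divided into 3 equal parts, 2 intervals fell in the first, 15 in the second and 18 in the last. Intron 15 of the MANE Select transcript, its longest at 479 kb, held 17 of the 35, and 7 of these were shared. The SOX2-only interval of highest total signal in the gene, at chr14:80034911-80035933 in intron 16, had a total of 6910.

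CNTNAP2 encodes CASPR2, a relative of the neurexins that helps to gather potassium channels beside the node of Ranvier. The gene, at chr7:145813094-148118090 on the plus strand, was nearly empty. It held 2 SOX2 intervals, or 0.868 per Mb (0.105 to 3.13), where 46.0 would be found at the autosomal density. Both lay in intron 10, 1291 and 1297 kb from the gene start. The first, at chr7:147103506-147104124, was SOX2-only with a total signal of 3221, and the second, at chr7:147109920-147110346, was shared with a total of 1944. Before this pair the gene was empty for 1290 kb, 56.0% of its length.

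PTPRD encodes a receptor protein tyrosine phosphatase of the LAR family that organises synapses from the presynaptic side. No interval of either list overlapped it over 2.3 Mb (chr9:8314246-10613002, minus strand). The autosomal density would give 45.8 SOX2 and 12.1 SOX2-DBD intervals over that length, and the exact Poisson interval of a count of 0 reaches 1.60 per Mb. The empty stretch around PTPRD ran on past both ends of the gene. It measured 4.81 Mb, with the nearest SOX2 interval 1999 kb before the gene start and 509 kb beyond its end, and it held 0 other protein-coding genes in full.

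LRP1B encodes a large endocytic receptor of the low-density lipoprotein receptor family. In the gene body, at chr2:140988992-142888585 on the minus strand, 21 SOX2 intervals gave 11.1 per Mb (6.84 to 16.9), 0.554 times (0.343 to 0.847) the density elsewhere on the autosomes. Of these, 17 lay in the middle part of 3 equal parts and 0 in the last, so the final 673 kb were empty. Only 2 of the 21 were shared, at 9.52% (Wilson 95% interval 2.65 to 28.9). The shared interval of highest total signal, 4270, lay at chr2:141782287-141782679 in intron 11, and the SOX2-only interval of highest signal, 5192, lay at chr2:141690697-141692207 in intron 20. That intron is 27.1 kb long and held 3 intervals.

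CSMD1 encodes a transmembrane protein with CUB and Sushi domains that is known to inhibit complement. Both lists had 0 intervals on the gene body of 2.06 Mb, at chr8:2792875-4852494 on the minus strand. The autosomal density would give 41.1 SOX2 and 10.8 SOX2-DBD intervals, and the Poisson interval reaches 1.79 per Mb. The stretch without a SOX2 interval that holds CSMD1 was 3.76 Mb long and took in 3 other protein-coding genes.

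The 2 proteins that act under the membrane came from partly occupied genes. DLG2 encodes PSD-93, a scaffold of the postsynaptic density, at chr11:83166055-85339379 on the minus strand. It held 12 SOX2 intervals, 5.52 per Mb (2.85 to 9.64), 0.277 times (0.143 to 0.483) the density of the other autosomal sequence. Intron 6, the longest at 577 kb, held 6 of them, and a stretch of 739 kb later in the gene held none. The SOX2-only interval of highest signal lay in intron 6 at chr11:84581045-84582202 with a total of 5724. The highest shared interval lay in intron 19 at chr11:83294999-83295402 with a total of 4519. DLG2 was the gene of the 9 in which intervals touched exons, in 2 cases.

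CTNNA2 encodes alpha-N-catenin, which links cadherins to actin in neurons, at chr2:79412357-80875986 on the plus strand. Its 19 SOX2 intervals gave 13.0 per Mb (7.82 to 20.3), 0.651 times (0.392 to 1.02) the density elsewhere on the autosomes. They were packed together, with 17 of the 19 inside 500 kb. Intron 7, the longest at 483 kb, held 8, and intron 2, of 92.7 kb, held 4. The highest SOX2-only interval, with a total of 5061, lay at chr2:79937902-79939565 in intron 2, and the highest shared interval, with a total of 2794, at chr2:80225318-80225781 in intron 7. CTNNA2 also held the single SOX2-DBD-only interval of the set, at chr2:80353892-80354569 in intron 7 with a total of 3933. Such an interval was found in 1 of the 9 genes, against 22.4% of the autosomal protein-coding genes of at least 1 Mb.

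The remaining genes encode a nuclear RNA-binding protein and an enzyme, and they stood at opposite ends of the order. RBFOX1, a regulator of alternative splicing in neurons and muscle, is the longest of the 9 at 2.47 Mb (chr16:5289803-7763342, plus strand). Neither list had an interval on it, where the autosomal density would give 49.3 SOX2 and 13.0 SOX2-DBD intervals, and the Poisson interval reaches 1.49 per Mb. The rest of chromosome 16 had 9.52 SOX2 intervals per Mb, the lowest among the chromosomes of these genes.

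MACROD2 encodes a hydrolase that removes mono-ADP-ribose from proteins, at chr20:13976015-16033842 on the plus strand. It held 66 SOX2 intervals, 32.1 per Mb (24.8 to 40.8), which was 1.61 times (1.24 to 2.05) the density of the other autosomal sequence. The rest of chromosome 20 had 14.6 per Mb. Intervals began 13.9 kb from the gene start, and 39 of the 66 lay in the first of 3 equal parts. Intron 3, of 408 kb, held 27, or 66.2 per Mb, and intron 2, of 83.2 kb, held 7, of which 5 were shared. The shared interval at chr20:14170070-14170696 in intron 3 had a total of 8286, the highest among the intervals in the 9 genes, and the highest SOX2-only interval, with 6419, lay in the same intron at chr20:14401644-14402947.

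The stretches without a SOX2 interval ran beyond the empty genes. A gene of this length with 0 intervals lies in a stretch at least as long as itself, so the ranks that follow partly restate the counts of 0. Among 57330 autosomal stretches between neighbouring SOX2 intervals with at least 90% determined sequence, the median length was 15.4 kb and 42 measured 3 Mb or more. The stretch over PTPRD ranked 7 in length, that over RBFOX1 (3.87 Mb) ranked 18 and that over CSMD1 (3.76 Mb) ranked 23. The stretch that ends inside CTNNA2, 3.94 Mb with 3429 kb before the gene start, ranked 16. The longest stretch that enters CNTNAP2 measured 2.58 Mb and ranked 53. These are ranks in 1 list, and no cause of the empty stretches was tested.

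**Figure D3:**
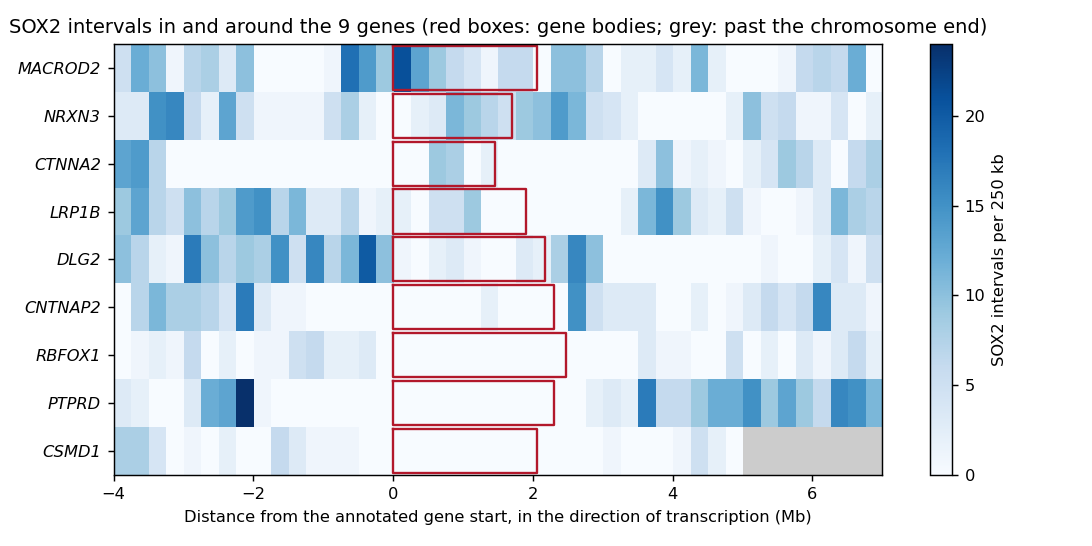
SOX2 intervals per 250 kb from 4 Mb before each gene start to 7 Mb after it, in the direction of transcription, with gene bodies boxed in red and positions past the chromosome end in grey. The bins inside RBFOX1, PTPRD and CSMD1 are empty, CTNNA2 shows an occupied patch between empty flanks, and DLG2 is pale next to an occupied upstream flank.

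The flanks differed from gene to gene. In the 2 Mb before the start of DLG2 there were 92 SOX2 intervals, 46.0 per Mb (37.1 to 56.4), against 5.52 per Mb inside the gene, and the nearest lay 3.31 kb from the start. CTNNA2 showed the opposite arrangement, with 0 intervals in 2 Mb on either side (up to 1.84 per Mb by the exact Poisson interval) and 13.0 per Mb inside. The density after the end of PTPRD was 19.5 per Mb (13.9 to 26.7), while the 2 Mb before its start held 1 interval. Around MACROD2 there were 42 intervals in the 2 Mb before the gene (15.1 to 28.4 per Mb) and 35 in the 2 Mb after it (12.2 to 24.3 per Mb), so the gene was the densest of the 3 segments.

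The share of intervals listed for both proteins was close to that of the autosomes. Of the 155 SOX2 intervals in the 9 genes, 36 (23.2%, 17.3 to 30.5) were shared, against 24.8% of all autosomal SOX2 intervals. The difference from the other autosomal intervals was -1.54 percentage points (Newcombe 95% interval -7.50 to 5.72), so a difference was not detectable with these numbers. Genes with more than 10 intervals ran from 9.52% in LRP1B, through 16.7% (4.70 to 44.8) in DLG2 and 21.2% (13.1 to 32.5) in MACROD2, to 31.4% (18.6 to 48.0) in NRXN3 and 31.6% (15.4 to 54.0) in CTNNA2, and their confidence intervals overlapped. Each shared interval has the same position and the same total signal in both lists. The library it was measured in is not stated, so the share also reflects how the lists were put together.

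Almost all intervals had their centre in an intron. Of the 155, 154 had their centre in an intron of the MANE Select transcript and 1 in an exon, that of DLG2 at chr11:83170715-83171201, near the end of the gene. Such genes consist almost entirely of intron, and the share for all autosomal SOX2 intervals was not computed. The count is therefore not read as a trait of these intervals. None lay within 1 kb of a start of a protein-coding transcript of its gene. The nearest to such a start, 8.33 kb away, was the SOX2-only interval at chr11:84642676-84643243 in DLG2. No interval lay at a promoter of the 9 genes by the distance of 1 kb. The share of gene length within that distance was not computed, so this count too has no background beside it.

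In width and signal the intervals overlapped the rest of their class, with a lower median signal for SOX2-only and for shared intervals. The median width of SOX2-only intervals was 532 bp in the 9 genes, with quartiles at 435.5 and 662.5 bp, and 559 bp elsewhere on the autosomes, with quartiles at 436 and 741 bp. Their median total signal was 2034 (1528 to 3019.5), against 2285 (1670 to 3272), in the authors' deposited units. For shared intervals the medians were 393 bp against 373 bp and 2576 against 2750. Of the 155, 101 (65.2%, 57.4 to 72.2) overlapped an interval of the SOX2 list named as down-sampled, against 64.3% of the other autosomal SOX2 intervals. That list likewise had 0 intervals on CSMD1, PTPRD and RBFOX1.

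The SOX core motif was present throughout the empty genes as well as the occupied ones. Counted on both strands, matches per kb were 1.53 in RBFOX1, 1.68 in CSMD1 and 1.80 in PTPRD, and ranged from 1.71 in NRXN3 to 1.84 in DLG2 among the 6 occupied genes, beside 1.61 over the autosomes. RBFOX1 and CSMD1 thus lay below every occupied gene and PTPRD within their range. A match was present in 27.5% of the 200-bp tiles of the empty genes, 29.0% of those of the occupied genes and 26.5% of all autosomal tiles. GC content was 35.5% in PTPRD, 38.5% in CSMD1 and 42.4% in RBFOX1, and 34.8% to 39.5% in the occupied genes. In autosomal 100-kb bins of 34.8% to 42.4% GC, the range of the 9 genes, the SOX2 density was 27.2 per Mb, so the set stood further below that background, at a ratio of 0.309.

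**Figure D4:**
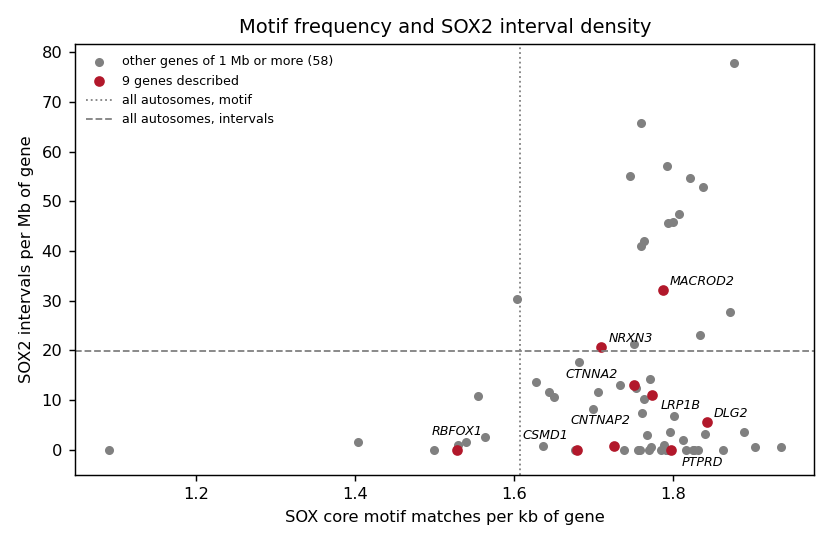
SOX core motif matches per kb of gene (horizontal) and SOX2 intervals per Mb of gene (vertical) for the 9 genes in red and 58 other autosomal protein-coding genes of at least 1 Mb in grey, with dashed and dotted lines at the autosomal values. PTPRD and MACROD2 have nearly the same motif frequency, at 1.80 and 1.79 per kb, and stand at 0 and 32.1 intervals per Mb. RBFOX1 and CSMD1, also at 0 intervals, have 1.53 and 1.68 matches per kb, below every occupied gene of the 9.

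Pooled over the genes, a difference from elsewhere in the share of interval centres with the SOX core motif was not detectable. Of 155 windows of 200 bp, 74 (47.7%, 40.0 to 55.6) held the SOX core motif, against 47.3% of the other autosomal SOX2 windows, a difference of 0.45 points (-7.27 to 8.28). By gene the count was 35 of 66 in MACROD2, 13 of 35 in NRXN3, 13 of 19 in CTNNA2, 8 of 12 in DLG2, 5 of 21 in LRP1B and 0 of 2 in CNTNAP2. The AP-1 motif, spelled TGACTCA or TGAGTCA and each the reverse complement of the other, was found in 15 windows (9.68%, 5.95 to 15.4), against 9.12% elsewhere and 3.07% of all autosomal tiles. AP-1 is a dimer of FOS and JUN proteins that is abundant in fibroblasts.

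Other genes of this length were often sparse as well. Of the 67 autosomal protein-coding genes of at least 1 Mb, 19 (28.4%) had 0 SOX2 intervals, beside 3 of the 9 genes, and 17 (25.4%) exceeded the autosomal density, beside 2 of the 9. Of these 2, NRXN3 lay within counting error of that density (14.4 to 28.7 per Mb). The autosomal length includes undetermined bases, so the density over determined sequence is higher and the side of NRXN3 is not settled. For SOX2-DBD, 24 of the 67 (35.8%) had 0 intervals, beside 3 of the 9. The median over genes was 5.52 per Mb in the 9 and 3.57 per Mb in the other 58. Pooled over sequence, with overlapping genes counted once, the other long genes had 13.9 per Mb, and the 9 stood at 0.605 (0.508 to 0.717) of that. MACROD2 ranked 12 of the 67 and NRXN3 17. GALNTL6, ROBO2 and ERBB4, at 8.13, 7.46 and 6.88 per Mb, were the other long genes nearest to the pooled density of the 9.

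**Figure D5:**
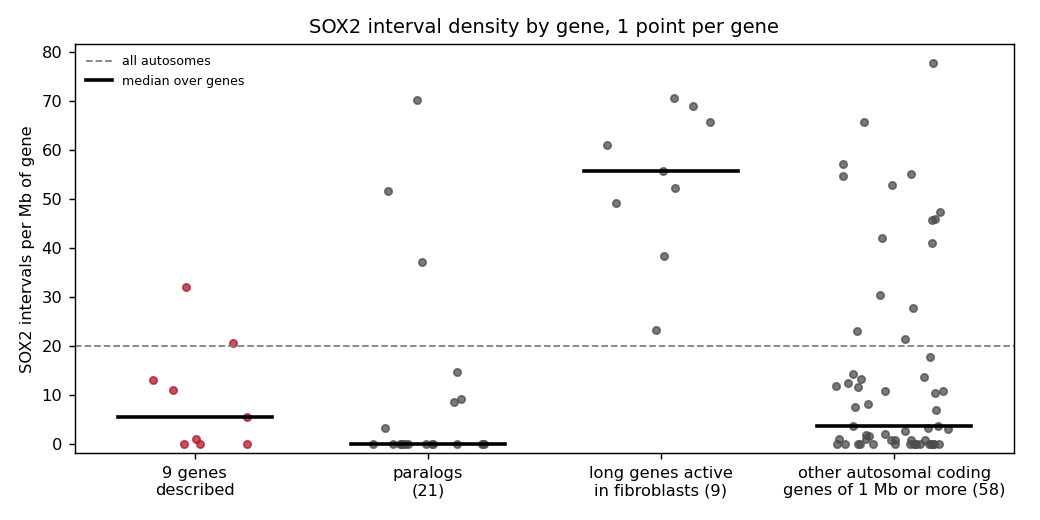
SOX2 intervals per Mb of gene, 1 point per gene, for the 9 genes, their 21 paralogs, 9 long genes known to be active in fibroblasts and 58 other autosomal protein-coding genes of at least 1 Mb, with medians as bars and the autosomal density as a dashed line. The fibroblast genes all lie above the line, from 23.1 to 70.5 per Mb, and the 9 genes run from 0 to 32.1.

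Among 21 paralogs of the same families, 3 exceeded the autosomal SOX2 density. Among all autosomal protein-coding genes of 0.1 to 0.3 Mb, 61.8% exceeded it. The relatives of these 3 among the 9 genes lay below that density, so each of the 3 stood above its relative by construction. Pooled, the 21 paralogs had 6.77 SOX2 intervals per Mb (5.17 to 8.72), beside 8.41 per Mb in the 9 genes, so paralogs as a list were not denser. DLG1, a broadly expressed relative of DLG2, held 18 SOX2 intervals in 0.257 Mb, 70.1 per Mb (41.5 to 111), a ratio of 12.7 (5.79 to 28.9) to DLG2. RBFOX2, the broadly expressed relative of RBFOX1, held 15 in 0.290 Mb, 51.7 per Mb (28.9 to 85.3). That was 42.6 times the density that a count of 3 would give in RBFOX1, which had 0. The counting error of RBFOX2 is not part of that ratio. CTNNA1, the alpha-catenin of most epithelial and mesenchymal cells, held 12 and stood at 37.0 per Mb, 2.85 times (1.26 to 6.19) CTNNA2. The other paralogs lay below the autosomal density, broadly expressed ones included. DLG5, a scaffold of the same family as DLG1, held 2 intervals, 14.7 per Mb (1.78 to 53.1). LRP1, PTPRF, PTPRS and MACROD1 had 0, over lengths of 0.0849 to 0.182 Mb at which few intervals would be found at the autosomal density. Among the longer relatives, CSMD3 had 0 intervals over 1.21 Mb, CNTNAP5 0 over 0.896 Mb, CTNNA3 6 over 1.85 Mb and CSMD2 6 over 0.652 Mb. In all, 14 of the 21 paralogs had 0 intervals, but many are short. Of the 12 that reach 200 kb, 7 had 0 intervals, beside 15.6% of autosomal protein-coding genes of 0.1 to 0.3 Mb, 15.5% of those of 0.3 to 1 Mb and 28.4% of those of at least 1 Mb.

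A list of 9 long genes known as background to be active in fibroblasts, drawn up with earlier results of these data known, carried 302 SOX2 intervals in 5.36 Mb, 56.4 per Mb (50.2 to 63.1). All 9 exceeded the autosomal density. Of these, 8 are 0.3 to 1 Mb long, a class in which 55.9% of autosomal protein-coding genes exceeded it and the pooled density was 28.2 per Mb. The densest of the list was LPP, which encodes a focal adhesion protein, at 70.5 per Mb (52.7 to 92.5). PRKG1, a cyclic-GMP-dependent kinase gene of 1.31 Mb, held 86 intervals, 65.8 per Mb (52.6 to 81.2), beside 32.1 per Mb in MACROD2. Expression, chromatin state and copy number were not measured here, so their part in these differences was not tested.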

How the data were processed

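The authors deposited 3 interval lists, 1 for SOX2-DBD and 2 for SOX2, of which the smaller is named as down-sampled. Files of replicate 2 were not analysed here. Per the submitters' processing notes, Bowtie2 2.3.4.1, SAMtools, bedtools 2.27.1, SEACR 1.3, deepTools 3.5.0 and build hg19 were used; settings, threshold and pooling are not given in the sources used here. Total and maximum signal per interval are the authors' deposited values, normalization unstated, and they were used only within a list. The seventh column, deposited in part of the SOX2 list with no stated meaning (unit other), was used only in the closing section. The down-sampled list was deposited as positions.

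Exact duplicate rows (1654 in each of the SOX2 and SOX2-DBD lists) were counted once, leaving 57907 and 15220 intervals, and 0 intervals passed a chromosome end of GRCh37. Depth per sample is unknown. Genes were counted by overlap of at least 1 bp. Intervals on densities are exact Poisson, on ratios exact conditional, on shares Wilson and on differences Newcombe, all at 95%. No test between groups was possible with 1 list per group. Named intervals were the highest shared and SOX2-only interval of each gene, any SOX2-DBD-only interval and any near a coding start; other genes came from the paralog and fibroblast lists and the 3 genes of at least 1 Mb nearest in density. A paralog is counted in its list but not reported by name here. The DLG2 intervals in an exon and nearest a start were chosen after their values were seen. Members and lists were chosen with earlier results of these data known. On simulated data, interval counts equalled a brute-force overlap count in 66 of 66 genes, and a planted shared share of 26.1% was found as 26.1%. Scripts ran in python 3.11.15 with scipy 1.17.1 for the intervals and pandas 2.3.3 for the tables. Sequence was read with samtools 1.23.1 and pyfaidx 0.9.0.4, and figures were drawn with matplotlib 3.10.9. Alternatives covered duplicate rows, the overlap rule, signal, width and merging of intervals, the gene model, the list, the background, the motif and its window, and each gene left out.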

Additional observations from a re-analysis of the deposited data

Results flagged for a closer look

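Shared intervals carry a value in column 7 of the SOX2 list. What it stands for is not stated, and it was not used in the report, so it is given here as a signal outside the main measurement. In the 9 genes, 12 of the 36 shared intervals (33.3%, Wilson 95% interval 20.2 to 49.7) had a value of at least 1 there, against 34.5% (33.7 to 35.2) of the other autosomal shared intervals.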

How the results depend on the processing

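No paired analysis was possible because there is 1 list for each protein, deposited with replicate 1. Whether it was called on that replicate alone is not stated, and there is no replicate to drop. Across the alternatives, 97 of 110 recomputed values for the 9 genes together stayed within the 95% interval of the reported value, and none of the density ratios crossed 1. For single genes, 55 values stayed within it and 8 did not. Part of these counts was fixed in advance. Leaving out CSMD1, PTPRD or RBFOX1, with 0 intervals each, cannot change a share, and the filter at 50 bp left the values unchanged. Keeping the upper 50% by total signal gave 3.58 SOX2 and 0.760 SOX2-DBD intervals per Mb, densities that are lower by construction. The ratios, which are not, were 0.356 for SOX2 and 0.288 for SOX2-DBD. The SOX2 value lay just below the 95% interval of the reported ratio (0.357 to 0.492). The down-sampled list gave 5.59 SOX2 intervals per Mb. The SOX2 ratio was 0.292 against other protein-coding gene bodies, 0.605 against other genes of at least 1 Mb and 0.309 against bins in the same GC range. Without MACROD2 the densities were 5.44 SOX2 and 1.40 SOX2-DBD intervals per Mb and the ratios 0.272 and 0.267. The SOX core motif share fell to 11.6% with the longer SOX motif of 8 letters and to 31.6% in 100-bp windows, by construction. Using determined bases as length, chosen after seeing the data, gave a SOX2 ratio of 0.391. Leaving out 1 gene at a time, the shared share ran from 20.8% to 25.4%, and its difference from the other autosomal intervals from -3.93 to 0.616 points. Unknown depth limits the comparison of the lists, since a deeper library gives more intervals.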

Other observations

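The density of SOX2 intervals in autosomal protein-coding genes was highest at intermediate gene length. It was 19.6 per Mb in genes under 0.05 Mb, 30.3 from 0.05 to 0.1 Mb, 35.6 (35.0 to 36.1) from 0.1 to 0.3 Mb, 28.2 from 0.3 to 1 Mb and 13.3 (12.6 to 14.1) in genes of at least 1 Mb. The shared share was 19.9% (18.7 to 21.1) in the shortest class and 28.6% (26.1 to 31.2) in the longest. Genes that overlap are counted in each class here, and the cause of the differences was not tested.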
